A study of Mus musculus with 12 samples.

Results

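The transcripts described here are *Ltf*, *Ngp*, *S100a8*, *S100a9*, *Lcn2* and *Camp*, a fixed list of neutrophil granule proteins and alarmins chosen as a gauge of granulocytes carried over into cultures of marrow macrophages. Of the 6, 5 had a value among the 13232 genes of the table, and *Camp* was not analysed here. The cells were bone marrow-derived macrophages, primary cells grown from whole marrow of wild-type C57B6/J mice with the growth factor M-CSF. The ND group came from mice on a normal diet and the HFD group from mice on a high-fat diet, with 3 libraries each. Both groups had 20 ng/ml M-CSF throughout, 10% serum at first, serum-free macrophage medium from day 4, and 1 h at 1% oxygen on day 7. Of the 12 labelled libraries the 6 at normal oxygen were not analysed here, so nothing is said about the response to hypoxia. The treatment text is the same for every library, and the groups rest on the titles. The labels give no age, sex or length of diet, and do not say whether a library is 1 mouse or a pool, so p-values measure the spread between these libraries, which may in part be technical.

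Neutrophils store antimicrobial proteins in granules that form in sequence as the cell matures in the marrow. Azurophil granules hold myeloperoxidase and serine proteases, specific granules hold lactoferrin, lipocalin and the cathelicidins, and gelatinase granules hold matrix metalloproteinases. The calgranulins S100A8 and S100A9 fill the neutrophil cytosol as a heterodimer, calprotectin, and act as alarmins, signals of tissue damage, once released. In whole marrow the transcripts of these proteins are abundant in neutrophil precursors, and M-CSF culture removes most of these short-lived cells. Monocytes and stimulated macrophages can also transcribe *S100a8*, *S100a9* and *Lcn2*, so these genes do not mark neutrophils alone.

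The 5 genes lie on 3 chromosomes of mm10 (GRCm38). *S100a8* (chr3:90669071-90670034) and *S100a9* (chr3:90692630-90695721) are neighbours, 22595 bases apart. *Ngp* (chr9:110419808-110423012) and *Ltf* (chr9:111019292-111042766) share chromosome 9 with 596279 bases between them, and *Lcn2* (chr2:32384637-32387739) stands alone. Promoter windows, 250 bases before to 50 after the start, were taken from RefSeq (GRCm38.p6) for all 5, because the 5 transcripts rose and fell together across libraries. The sequence TTGCNNAA, letters typical of sites for C/EBP factors, which drive granule genes, was searched on both strands. It was present in 4 of the 5 windows, *S100a8* being the exception, and in 10.8% of all 32851 windows of this length. The windows of *Ltf* (chr9:111019042-111019341, plus strand) and *Ngp* (chr9:110419558-110419857, plus strand) are shown because both hold the match TTGGGCAA, and that of *S100a8* (chr3:90668821-90669120, plus strand) because it holds none; capitals mark matches.
Ltf: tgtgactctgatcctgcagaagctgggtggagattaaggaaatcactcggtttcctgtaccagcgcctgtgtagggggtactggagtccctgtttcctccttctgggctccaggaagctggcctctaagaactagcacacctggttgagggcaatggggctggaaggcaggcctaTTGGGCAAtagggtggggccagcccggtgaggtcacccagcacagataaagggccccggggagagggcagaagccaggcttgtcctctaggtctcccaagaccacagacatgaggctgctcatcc
Ngp: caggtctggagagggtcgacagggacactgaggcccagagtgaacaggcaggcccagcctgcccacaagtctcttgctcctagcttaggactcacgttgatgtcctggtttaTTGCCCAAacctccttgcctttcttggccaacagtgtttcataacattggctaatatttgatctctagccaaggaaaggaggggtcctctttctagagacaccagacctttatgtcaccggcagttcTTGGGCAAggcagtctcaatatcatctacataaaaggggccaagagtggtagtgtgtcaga
S100a8: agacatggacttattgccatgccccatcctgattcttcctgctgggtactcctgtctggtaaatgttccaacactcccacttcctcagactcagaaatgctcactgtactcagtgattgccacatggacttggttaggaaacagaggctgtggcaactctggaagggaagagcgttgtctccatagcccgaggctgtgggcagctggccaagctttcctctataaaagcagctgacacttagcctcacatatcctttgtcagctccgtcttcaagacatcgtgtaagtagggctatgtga
The match in *Ltf* begins 75 bases before the start, and those in *Ngp* begin 138 and 11 bases before it. *S100a9* holds TTGCTTAA 236 bases before its start and *Lcn2* holds TTGCTCAA 216 bases before its own. GAGGAA, the core letters bound by PU.1, the master factor of myeloid cells, was found on either strand in 3 of the 5 windows (*Ltf*, *S100a8* and *Lcn2*), against 28.3% of all windows, and overlapped no C/EBP match. A consensus form of the NF-kB site was in none of the 5 and in 0.411% of all. A match describes letters in a window and is not a measured binding site.

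Values of single libraries are given in the order of replicates 1, 2 and 3 throughout. Levels are normalized read counts, estimated gene reads divided by 1 size factor per library. Estimated depth ran from 19046366 to 24491464 reads per library, and every HFD library was deeper than every ND library before scaling. ND replicate 3 was the shallowest. Leaving it out changed the calls over the whole table most among the single libraries: with all 6 libraries limma called 0 of 13232 genes at a Benjamini-Hochberg adjusted p under 0.05 (0%), with 1401 at an unadjusted p under 0.05 (10.6%), and without ND replicate 3 it called 233. With limma array weights it called 1133 (8.56%), 601 of them higher in HFD (4.54%), and none of the 5 members in either fit. The cultures carried macrophage transcripts throughout: 12 of 12 macrophage markers had values, with summed levels of 415005 to 462577 in ND and 408411 to 479366 in HFD. *Lyz2*, which neutrophils also make, was the largest part of each sum, at 228919 to 263221 in ND and 216365 to 267532 in HFD.

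Lactoferrin, encoded by *Ltf*, binds iron and is the standard protein of specific granules. Its level was 254, 357 and 253 in the ND libraries, against 287, 427 and 235 in the HFD libraries. ND replicate 2 and HFD replicate 2 were high, HFD replicate 3 was the lowest of all 6, and the diets overlapped. The ND mean was 288 ± 59.7 and the HFD mean 316 ± 99.0 (SD over n = 3 libraries), a log2 fold change of 0.11 (SE 0.21, limma adjusted p 0.895). The 95% interval of that difference ran from 0.778-fold to 1.49-fold.

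*Ngp* encodes neutrophilic granule protein, a cathelicidin relative of specific granules. It had the highest read level of the 5, at 437, 643 and 461 in the ND libraries, against 595, 782 and 435 in the HFD libraries. The same libraries were high as for *Ltf*, and HFD replicate 3 was again the lowest, level with ND replicate 1. *Ngp* averaged 514 ± 113 on the normal diet, against 604 ± 174 on the high-fat diet (SD over n = 3 libraries), with a log2 fold change of 0.21 (SE 0.20, limma adjusted p 0.759) and an interval from 0.844-fold to 1.59-fold.

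**Figure D1:**
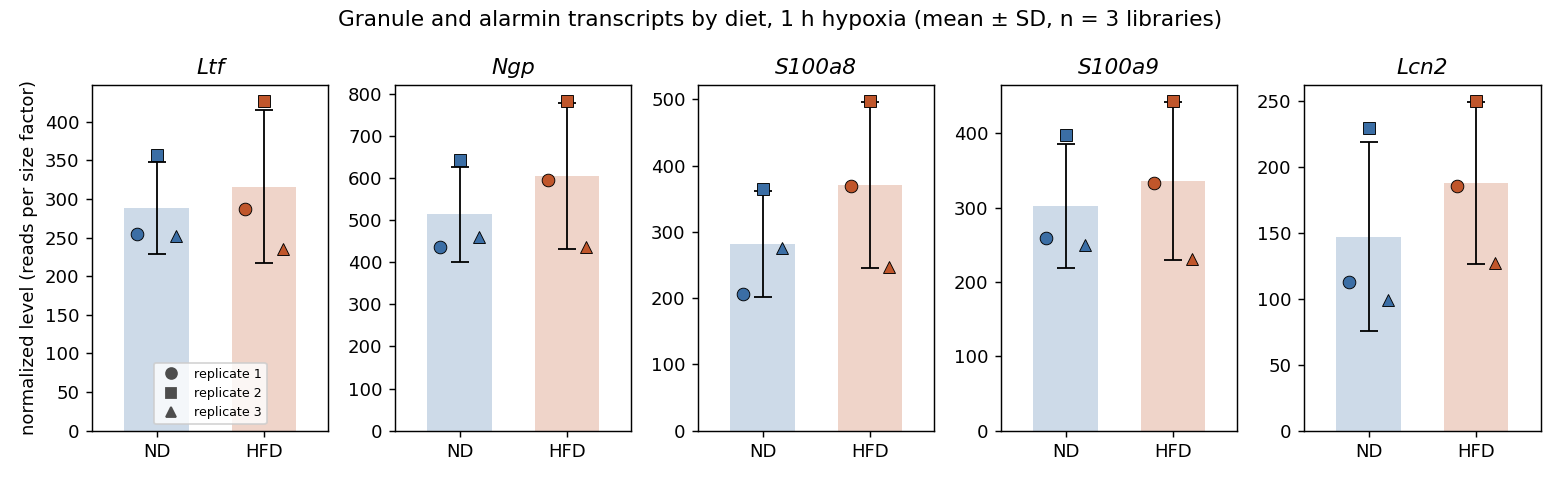
Normalized level (y axis, each panel from 0) of the 5 transcripts in ND and HFD libraries after 1 h of hypoxia; bars are means, whiskers SD over 3 libraries, and the marker shape gives the replicate number. The diets overlap in every panel, and the square of replicate 2 is the highest point of each diet for all 5 genes.

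The calgranulins gave the same picture. *S100a8* stood at 206, 365 and 275 in the ND libraries, against 369, 497 and 247 in the HFD libraries. Here ND replicate 1 was the lowest and HFD replicate 1 was level with ND replicate 2. The means were 282 ± 79.8 and 371 ± 125 (SD over n = 3 libraries), giving a log2 fold change of 0.38 (SE 0.26, limma adjusted p 0.653) with an interval from 0.874-fold to 1.93-fold. Its partner *S100a9* stood at 259, 398 and 249 in the ND libraries, against 333, 443 and 232 in the HFD libraries. Its order of libraries was that of *Ltf*, with HFD replicate 2 at the top and HFD replicate 3 at the bottom. For *S100a9* the means were 302 ± 83.1 and 336 ± 106 (SD over n = 3 libraries), and the log2 fold change was 0.14 (SE 0.24, limma adjusted p 0.881, interval 0.761-fold to 1.59-fold).

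The level ratio of *S100a8* to *S100a9*, the calprotectin partners, was 0.792, 0.916 and 1.10 in the ND libraries, against 1.11, 1.12 and 1.07 in the HFD libraries. It was lower in ND replicates 1 and 2 than in the other 4 libraries, and the diets overlapped. No test was made of this ratio.

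*Lcn2* encodes lipocalin 2, which withholds iron from bacteria by binding their siderophores. It was the scarcest of the 5 by reads, at 113, 230 and 99.2 in the ND libraries, against 186, 249.9 and 127 in the HFD libraries. It had the widest range, 2.52-fold from ND replicate 3 to HFD replicate 2. The means of *Lcn2* were 147 ± 71.8 and 188 ± 61.4 (SD over n = 3 libraries), with a log2 fold change of 0.40 (SE 0.32, limma adjusted p 0.706, interval 0.804-fold to 2.16-fold).

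All 5 log2 fold changes were above 0, as were 48.9% of those of all genes, and their median was 0.21 against -0.0034 over all genes. In the main fit of all 6 libraries none of the 5 passed an unadjusted p of 0.05, against 10.6% of all genes. *S100a8*, *Ngp* and *Lcn2* passed it in some alternative fits, given at the end. The diets overlapped for all 5, and among all genes tested the diets did not overlap for 14.5%. That all 5 were higher rested on HFD replicate 2. Without it, 3 of the 5 were higher in HFD, *S100a8* at 0.14, *Lcn2* at 0.17 and *Ngp* at 0.0081 on the log2 scale. *Ltf* then stood at -0.13 and *S100a9* at -0.088. Since the 5 vary together, their shared sign is not 5 separate observations.

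Libraries of the same diet differed in all 5 genes. Every value of the 5 genes came to a whole number of reads within 0.01 of a read (30 of 30 values), from 84 reads for *Lcn2* in ND replicate 3 to 810 for *Ngp* in HFD replicate 2, so counting error was 3.51% to 10.9%. That error covers counting only, because PCR copies cannot be told from separate molecules, and does not cover the spread between cultures. The SD of log2 levels within a diet was 0.37 for *Ltf*, 0.37 for *Ngp*, 0.46 for *S100a8*, 0.42 for *S100a9* and 0.57 for *Lcn2*. Over all genes the median SD was 0.12, and the 5 ranked between the 94.8th percentile and the 98.6th.

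The 5 genes agreed on which libraries were high. HFD replicate 2 was the highest library for 5 of 5, ND replicate 2 the highest of ND for 5 of 5, HFD replicate 3 the lowest of HFD for 5 of 5, and ND replicate 2, HFD replicate 1 and HFD replicate 2 made up the upper 3 for 5 of 5. Averaged over the 5, the log2 deviation from the mean of the 6 libraries was -0.37, 0.33 and -0.32 in the ND libraries, against 0.13, 0.58 and -0.34 in the HFD libraries. Estimated depth was 22181028, 22805246 and 19046366 reads in the ND libraries, against 23017055, 23552273 and 24491464 in the HFD libraries, and its part in the shared order was not tested. The same 3 placings (ND replicate 2 highest of ND, HFD replicate 2 highest and HFD replicate 3 lowest of HFD), chosen after the members' values were seen, held for 530 of 13232 genes (4.01%).

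**Figure D2:**
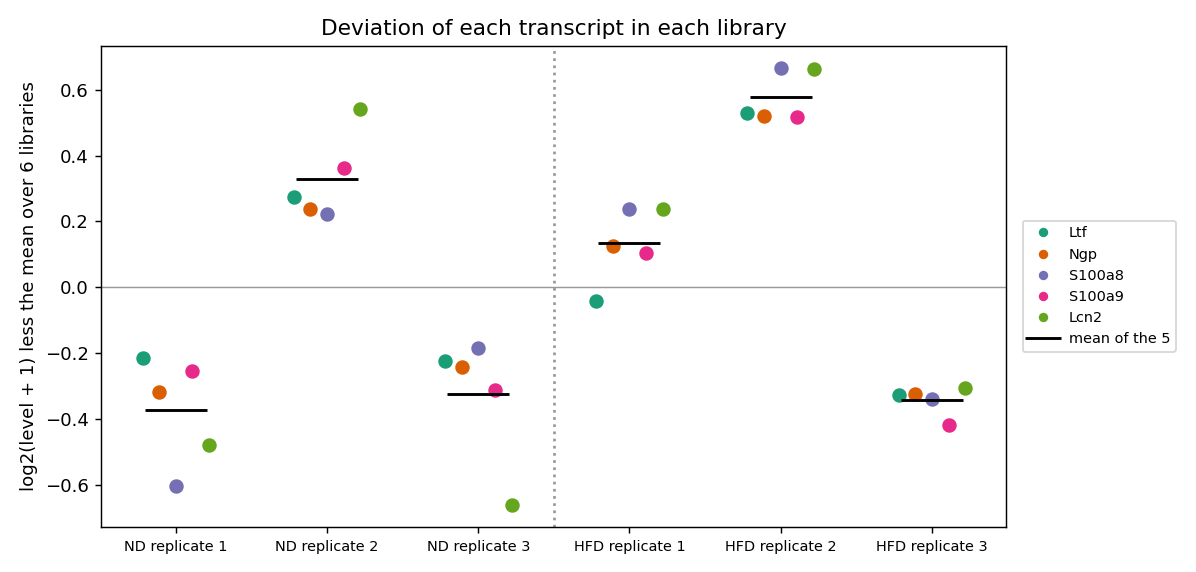
Log2(level + 1) of each transcript less its mean over the 6 libraries (y axis), by library (x axis); dots are genes, horizontal bars the mean of the 5, and the dotted line separates the diets. ND replicate 2 and HFD replicates 1 and 2 have means above 0, at 0.33, 0.13 and 0.58, and the other 3 libraries have means from -0.37 to -0.32.

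Ratios between members moved less than the levels themselves for some pairs. *Ltf* over *Ngp*, both specific granule transcripts, ran from 0.482 in HFD replicate 1 to 0.582 in ND replicate 1, a span of 1.21-fold, while *Ltf* itself spanned 1.81-fold and *Ngp* 1.80-fold. *Ngp* over *S100a9*, from different chromosomes, spanned 1.16-fold, and *Ltf* over *S100a9* 1.18-fold. Ratios with *Lcn2* spanned 1.45-fold to 1.75-fold, and those of *S100a8* to *Ltf*, *Ngp* and *S100a9* 1.35-fold to 1.59-fold. Over all 6 libraries *Lcn2* and *S100a8* thus kept a looser ratio to the rest than *Ltf*, *Ngp* and *S100a9* kept among themselves. For *S100a8* this leaned on ND replicate 1, where *Ngp* over *S100a8* was 2.13, against 1.57 to 1.76 in the other libraries. *Lcn2* had the fewest reads, with a counting error of up to 10.9%. No test was made of this difference in ratios. Of these genes, *Lcn2* holds a match to the C/EBP letters in its promoter window and *S100a8* none. Any link between the letters and the ratios was not tested.

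Per length the order changed. Divided by the length of the principal transcript in GENCODE M21 (486 bases for *S100a8*, 519 for *S100a9*, 1222 for *Ngp*, 915 for *Lcn2* and 2743 for *Ltf*), the level per kb in ND was 580 ± 164 for *S100a8*, 582 ± 160.1 for *S100a9*, 420.3 ± 92.4 for *Ngp*, 161 ± 78.5 for *Lcn2* and 105 ± 21.8 for *Ltf* (SD, n = 3). In HFD it was 763 ± 257, 647 ± 204, 494 ± 142, 205 ± 67.1 and 115 ± 36.1 in the same order of genes. *S100a8* and *S100a9* did not differ beyond their spread, and *S100a9* was above *S100a8* only in ND replicates 1 and 2. Below them every library gave *Ngp*, then *Lcn2*, then *Ltf*, with *Ngp* within the SD of the gene next above it in each diet and *Lcn2* well below *Ngp*. The step from *Lcn2* to *Ltf* was small, 1.18-fold to 1.94-fold within a library, and in ND lay within the spread of *Lcn2*.

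By read level, not per length, the 5 were mid-range genes of this table: mean levels over the 6 libraries lay at the 40.0th percentile of all genes for *Ltf*, the 54.7th for *Ngp*, the 41.8th for *S100a8*, the 41.3rd for *S100a9* and the 28.0th for *Lcn2*. The mean of *Ngp*, 559, was above the median gene level of 462. Against 3 abundant macrophage genes they were low. Summed, the 5 made up 0.00573% to 0.0106% of the column total. Lysozyme, *Lyz2*, which neutrophils and macrophages both make, was 181-fold to 473-fold above *S100a8* per kb. The M-CSF receptor gene *Csf1r* was 10.3-fold to 27.2-fold above it per kb, and *Adgre1*, which encodes F4/80, 9.18-fold to 20.7-fold. In these bulk libraries fewer cells of a type and less RNA per cell cannot be told apart, so the shares are not shares of cells.

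**Figure D3:**
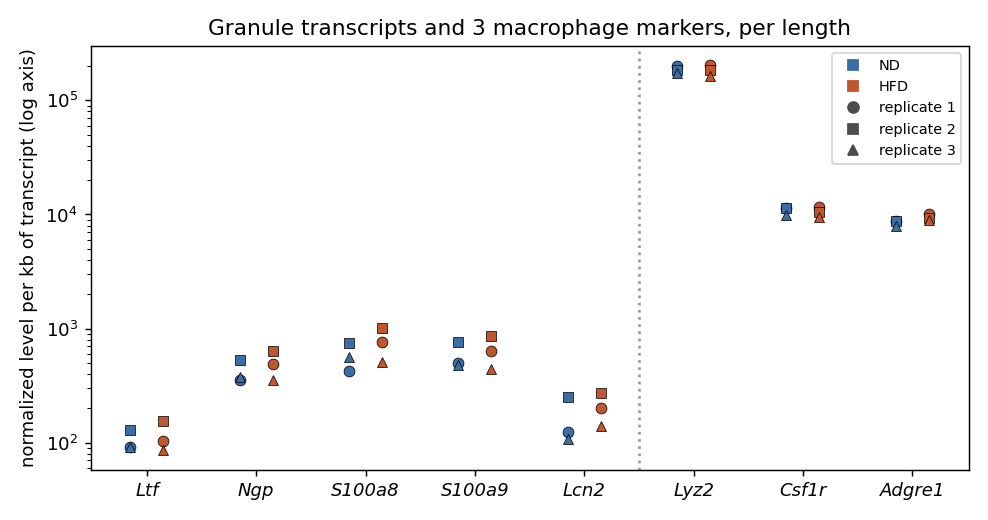
Level per kb of transcript (log y axis) of the 5 granule and alarmin transcripts and of 3 macrophage markers; colours give the diet, marker shapes the replicate, and each point is 1 library. *Ltf* lies lowest, from 85.7 to 156, and *Lyz2* highest, from 164411 to 203292.

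Few other transcripts that mark neutrophils had values. Of the azurophil list (*Mpo*, *Elane*, *Prtn3*, *Ctsg*, *Ms4a3*, *Prss57*, *Fcnb* and *Bpi*) 0 of 8 genes had a value. Of 16 neutrophil surface and cytosolic genes 2 had one, and *Ly6g*, *Cxcr2* and *Retnlg*, which define mature neutrophils, were not analysed here. Those 2 were *Csf3r*, the G-CSF receptor gene that monocytes also use, at 988 to 1366 in ND and 1080 to 1299 in HFD, and *Padi4*, an enzyme of extracellular trap formation, at 139 to 196 and 143 to 162. Neither differed between diets beyond its spread (log2 fold changes 0.052 and -0.059, limma adjusted p 0.909 and 0.921). The lowest mean level of any gene in the table was 3.36, and how rows were chosen for it is not given in the sources used here. A gene without a value is therefore not shown to be at 0, and the label of a granulocyte remnant rests on granule and alarmin transcripts without the defining surface markers.

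Of 18 further specific and gelatinase granule genes 10 had values, 8 higher and 2 lower on the high-fat diet, and the median of their log2 fold changes was 0.20. At an unadjusted p under 0.05 there were 3, all higher, against 5.4% of all genes, and 0 passed after adjustment. The collagenase gene *Mmp8* was, like the 5 members, highest in replicate 2 of each diet, but HFD replicate 1 was its lowest HFD library. It was 443, 463 and 452 in the ND libraries, against 707, 1032 and 834 in the HFD libraries, so its ND values were close together and all HFD values lay above them. For all HFD above all ND the table held 7.44% of genes. The difference came to 0.90 on the log2 scale (SE 0.12, limma adjusted p 0.113). The adjusted p was 0.00443 with array weights, 0.0196 without ND replicate 3, 0.0276 without HFD replicate 1 and 0.0358 with a term for the replicate number, and between 0.107 and 0.367 in the other 11 alternative fits.

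*Mmp9*, the gelatinase gene, which macrophages also make, was likewise apart by diet, at 63.9, 137 and 175 in the ND libraries, against 234, 320.4 and 258 in the HFD libraries. Its log2 fold change was 1.21 (SE 0.31, limma adjusted p 0.270; 0.79 and 0.524 when ND replicate 1 was left out, 1.51 and 0.0350 when ND replicate 3 was, and 1.70 and 0.00903 with array weights). Its adjusted p over all alternatives ran from 0.00903 to 0.879. HFD replicate 3, the lowest HFD library for all 5 members, was not the lowest for *Mmp8* or *Mmp9*. Whether *Mmp8* or *Mmp9* differ from the members in their response to diet was not tested. *Adam8*, a metalloprotease gene at 15872 to 23894, was the remaining gene at an unadjusted p under 0.05, with a log2 fold change of 0.33 (limma adjusted p 0.384) and overlapping diets.

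**Figure D4:**
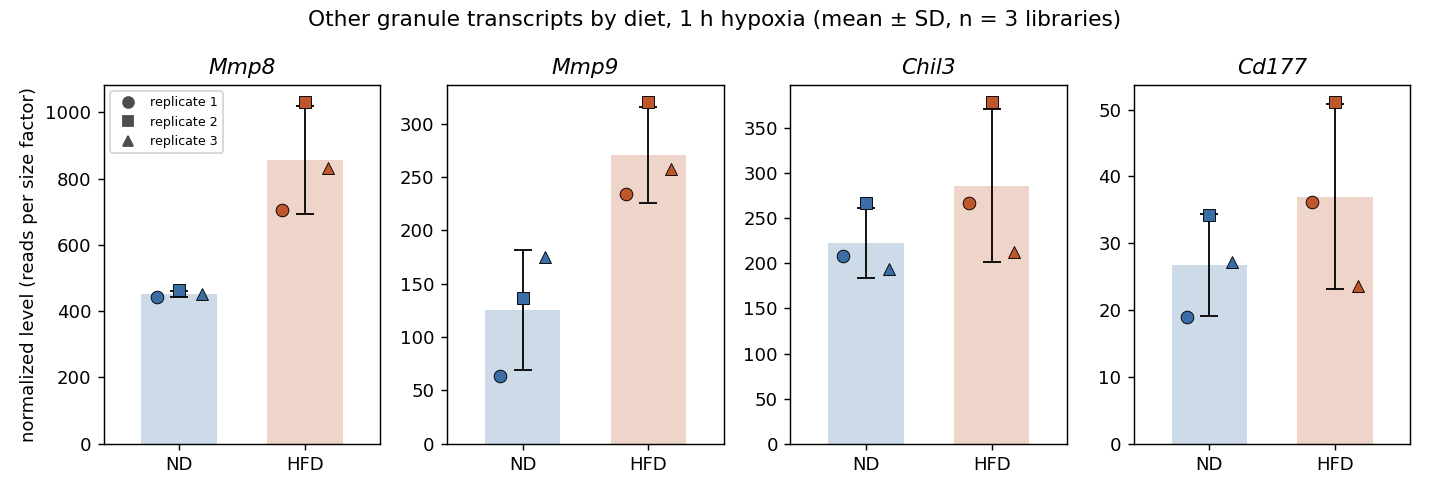
Normalized level (y axis, each panel from 0) of *Mmp8*, *Mmp9*, *Chil3* and *Cd177* in ND and HFD; bars are means, whiskers SD over 3 libraries, and marker shapes give the replicate. For *Mmp8* and *Mmp9* all HFD points lie above all ND points, and for *Chil3* and *Cd177* the diets overlap with the square of replicate 2 highest in each diet.

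Of the 10 listed specific and gelatinase granule genes with values, only *Chil3*, *Cd177* and *Olfm4* had the members' 3 placings of libraries. These placings (ND replicate 2 highest of ND, HFD replicate 2 highest and HFD replicate 3 lowest of HFD) held for 4.01% of all genes. *Chil3* encodes the chitinase-like protein Ym1, made by neutrophil precursors and by some macrophages, and stood at 209, 267 and 194 in the ND libraries, against 267, 379 and 212 in the HFD libraries. *Cd177*, a neutrophil membrane glycoprotein gene, was near the floor of the table at 19.0 to 34.2 in ND and 23.6 to 51.1 in HFD. *Olfm4*, found in the specific granules of some neutrophils, was at 38.9, 41.1 and 34.2 in the ND libraries, against 38.2, 53.1 and 28.2 in the HFD libraries. Its HFD replicate 1 lay just below ND replicate 1, unlike in the 5 members. Their log2 fold changes were 0.33, 0.42 and 0.020, with limma adjusted p-values of 0.610, 0.706 and 0.986.

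**Figure D5:**
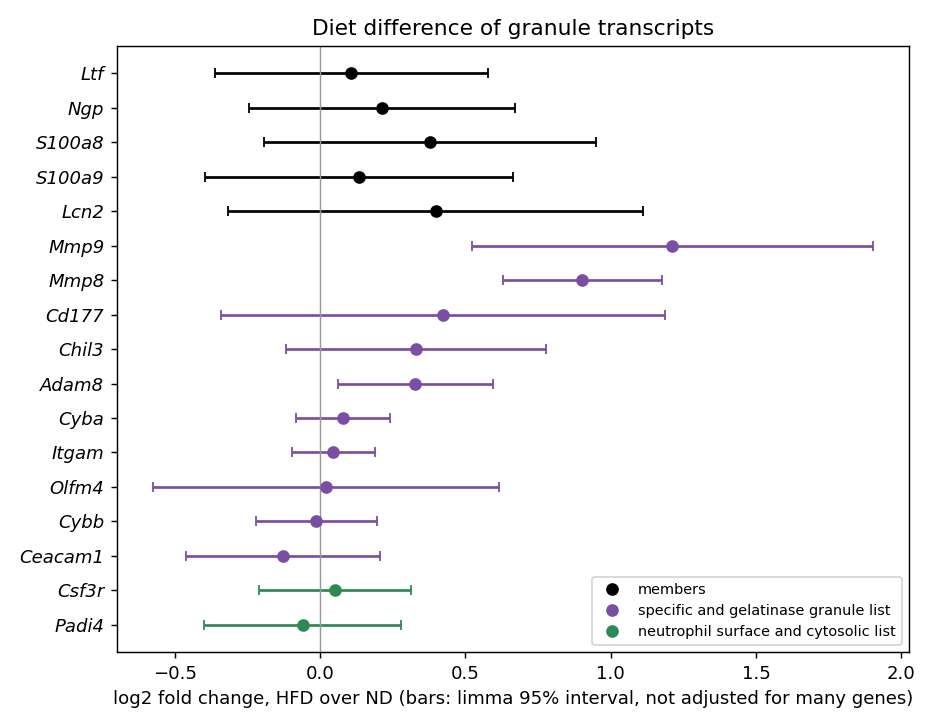
Log2 fold change of HFD over ND (x axis) with the limma 95% interval, not adjusted for many genes, for the members, the specific and gelatinase granule list and the neutrophil surface and cytosolic list. All 5 member intervals include 0, while those of *Mmp8* (0.90), *Mmp9* (1.21) and *Adam8* (0.33) do not.

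The genes whose library profile was most like the members' were found over all 6 libraries, as the smallest root mean square difference between a gene's centred log2 profile and the mean profile of the 5. *Chil3* came closest of 13207 genes (0.117), followed by *Cmklr1*, the chemerin receptor gene (0.120), *Gm7331* (0.129), *Apoe* (0.147) and *Zfp418* (0.156). Each member measured against the mean of the other members gave 0.0749 (*Ngp*) to 0.223 (*Lcn2*). *Cmklr1* stood at 355, 547 and 370 in the ND libraries, against 448, 542 and 344 in the HFD libraries. *Apoe*, the apolipoprotein gene that macrophages transcribe heavily, stood at 31501, 51560 and 41813 in ND and at 48799, 59197 and 38491 in HFD. The members' profile was thus shared by an abundant macrophage transcript as well as by a granule transcript. *C1qa*, a macrophage complement gene, also had the members' placings, at 2522, 3838 and 3324 in ND and 3951, 4142 and 2762 in HFD. It was the only 1 of the 12 macrophage markers to have them, and 4.01% of all genes did.

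Markers of other cells that marrow cultures can hold were read in the same libraries. Of 6 stromal markers 3 had values, the collagen genes *Col1a1*, *Col1a2* and *Col3a1*. All 3 had the members' 3 placings of libraries within each diet, as did 4.01% of all genes. The summed level of the 3 collagen genes was 308, 549 and 177 in the ND libraries, against 125, 337 and 51.8 in the HFD libraries. Over all 6 libraries their profiles were far from the members', at root mean square differences of 0.968, 0.827 and 1.24 (ranks 13167, 13126 and 13197 of 13207 genes), and ND replicate 1 was above HFD replicate 1. All 3 had lower means in HFD, with log2 fold changes from -1.45 to -1.04 and limma adjusted p-values from 0.448 to 0.589; *Col1a1* alone of the 3 had an unadjusted p under 0.05 (0.0423), against 5.18% of all genes lower. The part of stromal cells or of handling that these libraries share in the members' levels was not tested. Of 8 erythroid and 6 dendritic cell markers 0 had values, of 8 B cell markers 1 had one (*Ighm*, 1889 to 3061 in ND and 1876 to 2075 in HFD), and of 8 T and NK cell markers 1 had one (*Cd4*, 202 to 356 and 98.1 to 230.04). Both were lower on average in HFD with overlapping diets (limma unadjusted p 0.0290 and 0.0420, against 5.18% of all genes lower at under 0.05; adjusted p 0.410 and 0.448). Monocyte markers with values were 4 of 6, summing to 1315 to 1449 in ND and 1184 to 1394 in HFD, with 2 higher and 2 lower in HFD. *F13a1* and *Vcan* were lower at an unadjusted p under 0.05, against 5.18% of all genes (log2 fold changes -0.43 and -0.45, limma adjusted p 0.439 and 0.361). *Ccr2* and *Ly6c2* were higher, with log2 fold changes of 0.12 and 0.12 (limma adjusted p 0.779 and 0.922). *Ly6c2*, the marker of classical monocytes, was 48.2, 83.1 and 35.4 in the ND libraries, against 70.1, 51.9 and 49.9 in the HFD libraries, and HFD replicate 2 was not its highest library. Of 10 eosinophil, basophil and mast cell markers 2 had values, *Ccr3* with all HFD above all ND, as in 7.44% of all genes (647 ± 212 and 1017 ± 85.3, limma unadjusted p 0.00387, adjusted p 0.278), and *Kit* with all HFD below, as in 7.07% (159 ± 58.4 and 83.4 ± 18.2, limma unadjusted p 0.00525, adjusted p 0.284; SD, n = 3). All 6 proliferation markers had values, summing to 15523 to 18941 in ND and 15765 to 20977 in HFD, and *Ccnb1* and *Birc5* were lower at an unadjusted p under 0.05, against the same 5.18% of all genes (limma adjusted p 0.423 and 0.353).

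Among 8 transcription factors of granulocyte formation, *Cebpe* and *Gfi1*, which are needed for the specific granule stage, were not analysed here. The other 6 of 8 (*Cebpa*, *Cebpb*, *Cebpd*, *Runx1*, *Spi1* and *Irf8*) also act in macrophages; 5 were higher and 1 lower in HFD, with log2 fold changes from -0.028 to 0.16, none at an unadjusted p under 0.05 (10.6% of all genes), and all with overlapping diets (14.5% of all genes did not overlap). Of the genes induced together with *Lcn2* in inflamed cells 3 of 10 had values. *Nfkbiz*, the cofactor that *Lcn2* induction needs, was 298, 330 and 261 in the ND libraries, against 424, 311 and 264 in the HFD libraries. Its highest library was HFD replicate 1, where *Lcn2* was below both replicate 2 libraries. *Il1b* was at 4.72 to 26.4.

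Among 13 other S100 genes 6 had values, and none had the members' placings, which held for only 4.01% of all genes. At an unadjusted p of 0.05, 2 passed, both lower, against 5.18% of all genes. *S100a6*, the nearest gene to *S100a8* on its lower side with a value, was at 3368 to 4262 in ND and 3224 to 4129 in HFD, 54656 bases away, with a log2 fold change of -0.064 (limma adjusted p 0.881). *S100a1* (1533 ± 99.8 and 1238 ± 77.0, log2 fold change -0.31, limma adjusted p 0.260) and *S100a13* (256 ± 7.35 and 204 ± 15.1, log2 fold change -0.33, limma adjusted p 0.314; SD, n = 3) had all HFD values below all ND values, as did 7.07% of all genes. The diets overlapped for the other 4, among them *S100a4* and *S100a11*. The nearest genes with values beside *Ngp* (*Ptpn23* and *Klhl18*), *Ltf* (*Als2cl* and *Ccrl2*) and *Lcn2* (*1110008P14Rik* and *Ptges2*) did not have the members' placings either. With 4.01% of all genes having these placings, their lack does not set such small groups of genes apart. *Klhl18*, only 2913 bases from *Ngp*, was at 628 to 737 in ND and 582 to 692 in HFD.

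Of 14 genes for receptors through which these proteins act 7 had values, 4 higher and 3 lower on the high-fat diet, and the median of their log2 fold changes was 0.0058. At an unadjusted p under 0.05 there were 2, both lower, against 5.18% of all genes. *Tlr4*, the receptor for released calprotectin, averaged 3792 ± 144 on the normal diet, against 3813 ± 284 on the high-fat diet (SD, n = 3; log2 fold change 0.0058, limma adjusted p 0.985). Its partner *Cd14* was 3998 ± 25.9 and 3282 ± 358 with all HFD values below all ND values (log2 fold change -0.29, limma adjusted p 0.281). *Cd33*, which binds S100A9 in human cells, was 996, 838 and 463 in the ND libraries, against 413, 279 and 327 in the HFD libraries. The log2 difference of *Cd33* was -1.12 (SE 0.25, limma adjusted p 0.217). As for *Cd14*, all its HFD values lay below all its ND values, which held for 7.07% of all genes. *Lrp1*, a lactoferrin receptor gene, stood at 67857 to 77568 in ND and 71903 to 76772 in HFD with a log2 fold change of 0.021. The receptor genes did not have the members' placings in any of the 7 cases. These placings held for only 4.01% of all genes, so their lack does not set the receptor genes apart.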

How the data were processed

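RNA was measured in 3 ND and 3 HFD hypoxia libraries by stranded sequencing of total RNA (100 ng, ribosomal RNA removed, single reads of 75 bases), per the labels' protocols. The submitters' processing notes name STAR, Partek and mm10, without roles or versions; annotation, counting and any filter are not given in the sources used here. The authors deposited a signal: estimated gene counts divided by a size factor, as read from the values, of which 57.0% to 58.4% between 5 and 1000 were whole multiples of 1 read (within 0.02), so no count test was run. Columns marked NC were taken as ND and the number in a name as the replicate.

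Log2(value + 1) of genes with a mean of at least 1 (all 13232) was compared with limma 3.58.1 (R 4.3.3, mean-variance trend, two-sided), with Benjamini-Hochberg adjustment over all genes and a threshold of 0.05. Fold changes are on that scale and understate those of low genes. The fit was tested on simulated data. Members and lists were chosen with earlier results of these data known. All members are named, and other names were taken from each list's 4 genes with the smallest p, its 2 most abundant and 10 defining genes, the 5 genes of most similar profile and the nearest genes; any others (*C1qa*, *Cd177*, *Olfm4*) were named after their values were seen. Chromosome positions and windows are RefSeq GRCm38.p6. The residuals of libraries with the same number had correlations of -0.0086, -0.037 and -0.00069, and the labels tie no number to a mouse, so the libraries were treated as unpaired. Alternatives were other pseudocounts, filters, scalings, weights, a replicate term and leaving out each library.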

Additional observations from a re-analysis of the deposited data

How the results depend on the processing

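The count of 0 genes at an adjusted p under 0.05 held with pseudocounts of 0.1 and 10, column-total or quantile scaling, a minimum of 10 per library, no filter, and no trend. It was 1133 with limma array weights (8.56% of genes, none of the 5 members) and 31 with the replicate block, again without a member; leaving out 1 library gave 0 to 233. The cause was not tested. The block moves no fold change and changed no member's call at an adjusted p under 0.05. It lowered the limma unadjusted p of *Lcn2* from 0.241 to 0.0254 (adjusted p 0.346), with 1506 of 13232 genes below 0.05. The block is only a shared number, and gave *Mmp8* a limma adjusted p of 0.0358.

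Of 75 member values under 15 alternatives 73 kept direction and side of the adjusted p threshold, and 2 reversed, both without HFD replicate 2. Without 1 library, log2 fold changes ran from -0.13 to 0.30 for *Ltf*, 0.0081 to 0.43 for *Ngp*, 0.14 to 0.64 for *S100a8*, -0.088 to 0.38 for *S100a9* and 0.17 to 0.77 for *Lcn2*, and 3 to 5 of the 5 were higher in HFD. Array weights, which gave HFD replicate 2 a weight of 3.09 and ND replicate 3 one of 0.441, raised them to 0.40, 0.50, 0.78, 0.42 and 0.69, with limma adjusted p-values from 0.0592 (*S100a8*) to 0.207. With 84 to 810 reads per member value, counting error was 3.51% to 10.9%, and 3 libraries per diet limit the precision of every difference.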
